A study of Mus musculus with 30 samples.

Results

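The retinas of mice that lack Camk2d, the gene of the delta form of calcium/calmodulin-dependent kinase II, were compared between diabetic and non-diabetic animals across all genes. The members are the 7 of 30 RNA sequencing libraries of the study whose names mark them as knockout retina: 3 from diabetic mice (db, libraries R587, R588 and R591) and 4 from non-diabetic mice (ndb, libraries R559, R560, R582 and R590). A library is 1 retina sample, named by organ and animal number. The diabetic mice were Lepr(db/db) and the non-diabetic mice Lepr(+/+), all were 16 weeks old, and all 7 carried the global Camk2d knockout, so this comparison has no animal with an intact kinase gene in it. The 7 wild-type retina libraries (4 diabetic and 3 non-diabetic) and the 8 knockout kidney libraries, 6 of whose animals also gave the retinas, were used to show where the knockout retina differed. Diabetes here is that of a leptin receptor mutation, which disturbs feeding and body weight as well as blood glucose, and none of these can be told apart in this design.

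CaM kinase II is switched on by calcium-bound calmodulin and phosphorylates channels, calcium stores, synaptic proteins and transcription factors; the alpha, beta, gamma and delta forms come from separate genes. The db allele disrupts the long, signalling form of the leptin receptor, and db/db mice become obese, insulin resistant and hyperglycaemic. Rods are the most numerous cell of the mouse retina and spend much ATP on the ion pumps that sustain their dark current.

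Retinal RNA was sequenced, and the deposited gene counts, estimated by kallisto, are given here as CPM (counts scaled by the library's normalised size) after TMM scaling. A knockout retina library held 19979385 to 20562463 counts, so the libraries were of nearly the same depth. Values of single libraries are given in the order R587, R588 and R591 for diabetic and R559, R560, R582 and R590 for non-diabetic knockout retina. All 29 rod, 16 cone and 21 bipolar markers passed the expression filter, and rod markers summed to 68622 to 92253 CPM in the 7 libraries. In kidney the same filter kept 18 rod, 6 cone and 7 bipolar markers, so passing it does not by itself mark retina. The targeted gene fitted the genotype labels in all 14 retinas. Camk2d (chromosome 3:126596302-126846326, + strand, GRCm38) was at 3.32, 3.71 and 3.41 CPM in the diabetic and 3.82, 4.25, 3.09 and 3.91 CPM in the non-diabetic knockout retinas, against 285 to 343 CPM in the wild-type retinas. Library R588 stood apart from the other 6 by its lens RNA, with a summed lens level of 1681 CPM against 101 to 678 CPM.

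No gene was called between diabetic and non-diabetic knockout retina. In edgeR's quasi-likelihood test with Benjamini-Hochberg adjustment, 0 of 20979 genes tested (0.0%) had an adjusted p under 0.05, and the smallest adjusted p was 0.154. At an unadjusted p under 0.05 there were 1855 genes (8.84% of those tested), 847 of them higher and 1008 lower in the diabetic retinas. DESeq2 called 92 genes, 34 higher and 58 lower, which is 0.639% of the 14405 genes for which it gave an adjusted p. Limma called 3 on either TPM scale. A fit on the 7 knockout libraries alone called 16 genes, and a fit without the 3 libraries richest in lens RNA called 25, all higher. Leaving out 1 library gave up to 15 calls, which was the count without R588; it was 12 without wild-type R852 and 5 without R590. For every gene named below that had no edgeR call, the values are a description of these 7 libraries and not a change. The median log2 fold (diabetic over non-diabetic) was 0.007 over all genes, and 282 genes had a log2 fold of at least 1 in size.

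**Figure D1:**
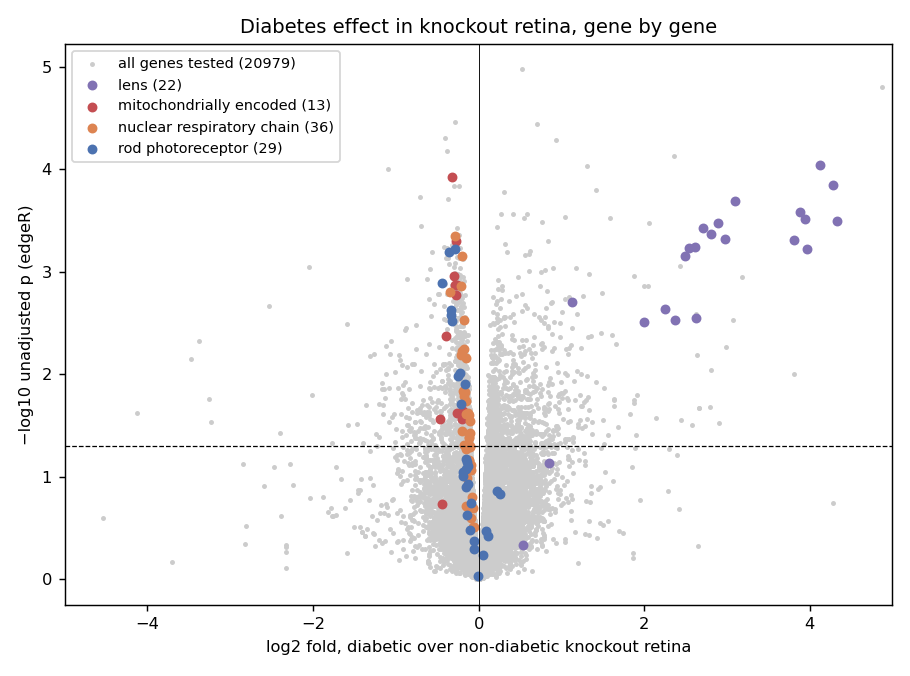
The horizontal axis gives the log2 fold of diabetic over non-diabetic knockout retina and the vertical axis the −log10 of the unadjusted edgeR p for each of the 20979 genes (grey); the dashed line marks the unadjusted level of 0.05, and 9 genes beyond a log2 fold of 5 lie outside the axis. Most of the lens genes lie far to the right, while the mitochondrially encoded and respiratory chain genes form a narrow band just left of 0.

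Among the genes of smallest p with higher values in the diabetic retinas was Zan (chromosome 5:137378637-137477064, - strand), which encodes zonadhesin, a protein of the sperm head. Zan was at 47.8, 48.7 and 46.8 CPM in the 3 diabetic and 31.3, 35.2, 32.5 and 34.2 CPM in the 4 non-diabetic retinas. All diabetic libraries lay above all non-diabetic ones, and within each group the values were close. The log2 fold of Zan was 0.52 ± 0.08 (SE; edgeR adjusted p = 0.154, DESeq2 adjusted p = 3.68e-05). In wild-type retina the same comparison gave 0.40 ± 0.08, with a call (edgeR adjusted p = 0.0225).

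Lair1 (chromosome 7:4003402-4063204, - strand), an inhibitory collagen receptor of immune cells, was at 14.6, 12.3 and 17.6 CPM in the diabetic and 8.95, 7.95, 10.4 and 8.99 CPM in the non-diabetic retinas. The groups did not overlap, and library R591 was the highest. Its log2 fold was 0.71 ± 0.12 (SE; edgeR adjusted p = 0.154, DESeq2 adjusted p = 0.000581). Of 19 microglia and macrophage markers tested, 0 had an unadjusted p under 0.05, their median log2 fold was -0.12, and their summed level was 97.6 to 114 CPM in the diabetic and 99.5 to 132 CPM in the non-diabetic libraries. With 1 library left out that median ran from -0.26 (without R560) to -0.04 (without R587).

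Dusp1, a phosphatase that switches off MAP kinases and is induced within minutes by growth factors, stress and glucocorticoids, was at 33.6, 30.1 and 22 CPM in the diabetic and 14.4, 14.9, 15.9 and 14.7 CPM in the non-diabetic retinas. The 4 non-diabetic libraries were nearly level, and the diabetic ones were spread well above them. The log2 fold was 0.93 ± 0.17 (SE; edgeR adjusted p = 0.154, DESeq2 adjusted p = 0.000176). In wild-type retina it was -0.15 ± 0.16, and the difference between the genotypes was not called (interaction adjusted p = 0.121). The kidneys of the knockout mice gave a log2 fold of 1.13 ± 0.22, also without a call (edgeR adjusted p = 0.0913).

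Fam13c also had tight groups, at 27.8, 27.3 and 26.9 CPM in diabetic and 22.8, 22.1, 22 and 21.7 CPM in non-diabetic retinas (log2 fold 0.30 ± 0.06, SE; edgeR adjusted p = 0.196). Styk1, a kinase-like receptor gene, and the vomeronasal receptor gene Vmn1r26 behaved differently from those. Styk1 was at 5.19, 1.01 and 4.74 CPM in diabetic and 0.402, 0.75, 0.835 and 0.83 CPM in non-diabetic libraries. Vmn1r26 was at 10.9, 3.71 and 11.7 CPM against 3.52, 3.20, 3.0 and 3.37 CPM. Both were high in libraries R587 and R591 and near the non-diabetic level in library R588. The remaining genes of smallest p in this direction, Lgsn and Crygc, belong to the lens list.

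Among the genes with lower values in diabetic knockout retina, Hes5 (chromosome 4:154960923-154962371, + strand), a transcriptional repressor downstream of Notch, was at 3.22, 2.85 and 3.95 CPM in the diabetic and 6.64, 6.80, 7.96 and 7.08 CPM in the non-diabetic retinas. The groups did not overlap. Its log2 fold was -1.09 ± 0.21 (SE; edgeR adjusted p = 0.174, DESeq2 adjusted p = 0.000719), and in wild-type retina -0.35 ± 0.20. Of its sequence, 74.3% of 31-base words occur in no other annotated gene. The related Hes1 was at 15.4, 17.3 and 18.7 CPM against 20.9, 20.3, 22.5 and 22.7 CPM, again without overlap (log2 fold -0.33 ± 0.11, SE; edgeR adjusted p = 0.381).

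Bcap31 (chromosome X:73686178-73716175, - strand), a chaperone of the endoplasmic reticulum membrane, was at 49.3, 50.0 and 50.3 CPM in diabetic and 59.9, 58.5, 62.0 and 61.8 CPM in non-diabetic libraries, a log2 fold of -0.28 ± 0.05 (SE; edgeR adjusted p = 0.154, DESeq2 adjusted p = 0.000719). Arl6 (chromosome 16:59612949-59639391, - strand), a small GTPase that recruits the coat carrying membrane proteins to cilia, was at 109, 99.9 and 110.0 CPM against 141, 136, 129 and 157 CPM, a log2 fold of -0.41 ± 0.07 (SE; edgeR adjusted p = 0.154, DESeq2 adjusted p = 0.000257). Both separated the groups completely. Atg4c, a protease of autophagy, was at 43.0, 41.6 and 43.3 CPM against 60.1, 57.8, 50.0 and 54.7 CPM (log2 fold -0.38 ± 0.07, SE; edgeR adjusted p = 0.174). Tmem9b was at 56.6, 51.8 and 55.7 CPM against 65.7, 69.6, 65.9 and 67.8 CPM, with a log2 fold of -0.30 ± 0.06 here and -0.28 ± 0.06 in wild-type retina, where it was called (edgeR adjusted p = 0.0236).

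Hmgn1 (chromosome 16:96120618-96127729, - strand), a nucleosome-binding protein that loosens chromatin, was at 484, 464 and 496 CPM in diabetic and 584.03, 548, 568 and 575 CPM in non-diabetic libraries. Its log2 fold was -0.24 ± 0.05 (SE; edgeR adjusted p = 0.192, DESeq2 adjusted p = 2e-05). The wild-type retinas gave nearly the same size, -0.21 ± 0.05, with a call (edgeR adjusted p = 0.0335). The last gene of this group, Rpl15-ps3, is a ribosomal pseudogene at 6.87, 1.74 and 1.14 CPM against 19.6, 14.2, 16.3 and 21.2 CPM; none of its 31-base words is unique, so its estimate depends on how reads were divided among near-identical copies. The same holds for part of Rpl19, with 41.2% unique words.

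**Figure D2:**
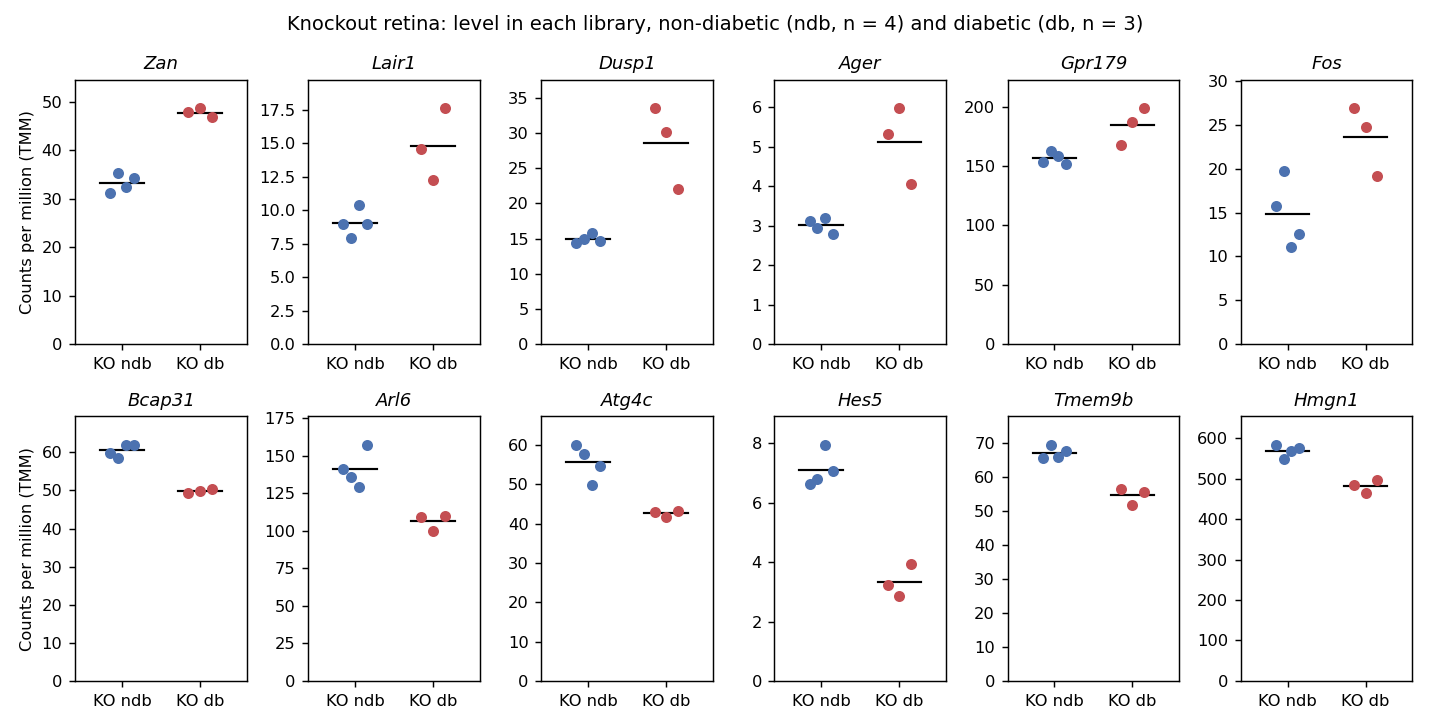
Level in CPM (vertical axes from 0) of 12 genes in each of the 4 non-diabetic (blue) and 3 diabetic (red) knockout retinas; the black line is the group mean. The groups do not overlap for 11 of them, and for Fos 1 non-diabetic library lies above the lowest diabetic one.

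The respiratory chain genes had lower values in diabetic knockout retina, none of them called. Oxidative phosphorylation takes subunits from the mitochondrial genome and from the nucleus. Of the 13 genes encoded in mitochondrial DNA, all had a fitted value below 0 (48.0% of all genes did), and 12 had an unadjusted p under 0.05, against 4.8% of all genes in that direction. The median log2 fold of the 13 was -0.27 and the range -0.47 to -0.19, and for 11 of them the groups did not overlap (6.16% of all genes did so in that direction). Of 36 nuclear genes of the chain, all 36 were below 0, 23 had an unadjusted p under 0.05, and 30 separated the groups. Their median was -0.15. DESeq2 called 6 of the mitochondrial and 3 of the nuclear genes, against 0.639% of all genes, and without R588 the medians were -0.26 and -0.17.

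Summed over the 13 mitochondrial genes, the level was 60421, 56478 and 58053 CPM in the diabetic and 69176, 67946, 69682 and 73672 CPM in the non-diabetic knockout retinas. The 36 nuclear genes summed to 4126, 4238 and 4062 CPM and 4647, 4469, 4526 and 4543 CPM. In both sums every diabetic library was below every non-diabetic one. The share of all counts from mitochondrial genes was 6.05% to 6.42% in the diabetic and 6.89% to 7.62% in the non-diabetic libraries.

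mt-Cytb, the cytochrome b of complex III, was at 9450.1, 8984 and 9034 CPM in diabetic and 10973, 10844, 10867 and 11589.7 CPM in non-diabetic libraries, a log2 fold of -0.27 ± 0.06 (SE; edgeR adjusted p = 0.218, DESeq2 adjusted p = 0.000262). mt-Nd2, of complex I, was at 3636, 3361 and 3358 CPM against 3958, 4037, 4101 and 4685 CPM (log2 fold -0.28 ± 0.07, SE). mt-Atp8, of ATP synthase, was at 1073, 990.4 and 1039 CPM against 1278, 1315, 1237 and 1245 CPM (log2 fold -0.29 ± 0.07, SE). All 3 separated the groups. mt-Nd4l had the smallest p of the list, at 666, 595 and 653 CPM against 807, 816, 775 and 784 CPM, but only 1.1% of its 31-base words are unique to it, and its estimate is uncertain. In wild-type retina mt-Cytb and mt-Nd2 were called lower in diabetes, with log2 folds of -0.32 ± 0.06 and -0.33 ± 0.07 (edgeR adjusted p = 0.0191 and 0.027).

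Ndufa4, a small subunit of cytochrome c oxidase, was at 114, 124 and 111 CPM in diabetic and 151, 143, 137 and 136 CPM in non-diabetic libraries, a log2 fold of -0.28 ± 0.06 (SE; edgeR adjusted p = 0.218, DESeq2 adjusted p = 0.00998). Atp5c1, the gamma subunit of the rotor of ATP synthase, was at 148, 152 and 142 CPM against 169, 168, 167 and 172 CPM, a log2 fold of -0.20 ± 0.05 (SE; edgeR adjusted p = 0.22, DESeq2 adjusted p = 0.0122). Cox6c of cytochrome c oxidase (log2 fold -0.21 ± 0.05, SE) and Ndufa1 of complex I (-0.35 ± 0.09, SE) separated the groups as well. The wild-type median of the nuclear list was -0.14, and that of the mitochondrial list -0.16, so both lists lay below 0 in both genotypes. In the kidneys of knockout mice the nuclear list had a median of -0.10 and the mitochondrial list one of 0.59; there the mitochondrial share of counts ranged from 22.01% to 45.41% over the 8 libraries.

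Most rod genes also had lower values in diabetic knockout retina, without a call by edgeR. Of the rod markers, 24 had a fitted value below 0, and 5 were above 0, up to 0.26. Of all genes, 48.0% were below 0. Of 29 rod markers tested, 10 had an unadjusted p under 0.05 and all 10 were lower in diabetic retina, against 4.8% of all genes in that direction. The median log2 fold was -0.15, and -0.12 without R588; DESeq2 called 6, against 0.639% of all genes. Rod markers summed to 69398, 68622 and 75280.5 CPM in the diabetic and 92253, 86705, 80828 and 77249.9 CPM in the non-diabetic knockout retinas, which did not overlap; the wild-type retinas summed to 73799 to 88813 CPM with diabetes and 75073 to 78004 CPM without it, which did. In whole retina, fewer rods and less RNA per rod cannot be told apart.

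Gngt1, the gamma subunit of rod transducin, was at 809, 733 and 766 CPM in diabetic and 1097, 1009.6, 868 and 959 CPM in non-diabetic libraries, a log2 fold of -0.35 ± 0.08 (SE; edgeR adjusted p = 0.218, DESeq2 adjusted p = 0.00522). Pdc encodes phosducin, which binds the transducin beta-gamma pair. It was at 1657, 1499 and 1542 CPM against 2351, 2319, 2033 and 1804 CPM, a log2 fold of -0.44 ± 0.11 (SE; edgeR adjusted p = 0.249, DESeq2 adjusted p = 0.0139). Rcvrn encodes recoverin, a calcium sensor of photoreceptors. Its values were 549, 562 and 595 CPM against 715, 664, 707 and 684 CPM (log2 fold -0.28 ± 0.07, SE).

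Rcvrn had the same size in wild-type retina, -0.28 ± 0.07, where it was called (edgeR adjusted p = 0.0363). Pdc had a wild-type log2 fold of 0.12 ± 0.11, and no rod gene was called in the test of the difference between genotypes (interaction adjusted p = 0.234 for Pdc).

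**Figure D3:**
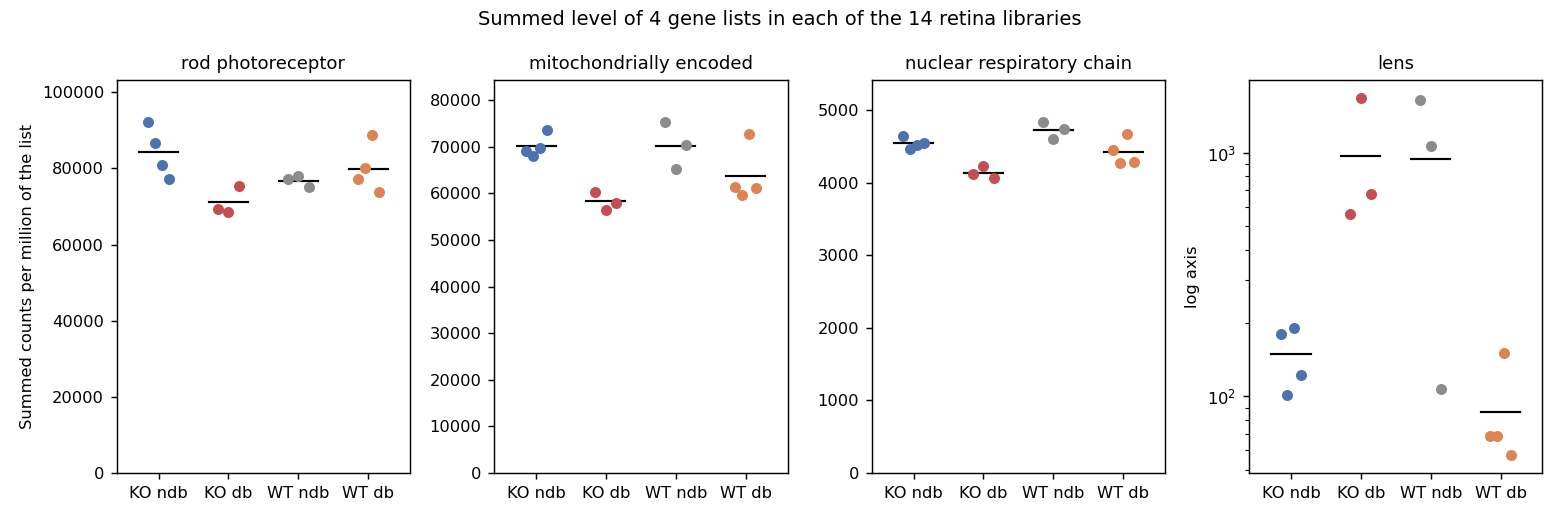
Summed CPM of the rod, mitochondrially encoded, nuclear respiratory chain and lens lists in each of the 14 retina libraries by group; the lens panel has a log axis, and black lines are group means. In knockout retina (blue and red) the first 3 sums are lower in every diabetic library, and the lens sum is higher in every diabetic library, with library R588 at 1681 CPM.

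Rod promoters carry sites of the form TAATCC, the core read by the homeodomain factor CRX that drives photoreceptor genes. In the 250 bases before the gene start, TAATCC on either strand occurred in 9 of 21 rod promoters in the RefSeq table (42.9%) and in 6.38% of 27025 promoters of all genes. The promoter of Gngt1 is shown as an example of a rod gene with a lower level and a match. Any link between the site and the level was not tested. The capitals mark TAATCC read on the other strand, 44 bases before the gene start (chr6:3993758-3994007, + strand, GRCm38.p6).
Gngt1: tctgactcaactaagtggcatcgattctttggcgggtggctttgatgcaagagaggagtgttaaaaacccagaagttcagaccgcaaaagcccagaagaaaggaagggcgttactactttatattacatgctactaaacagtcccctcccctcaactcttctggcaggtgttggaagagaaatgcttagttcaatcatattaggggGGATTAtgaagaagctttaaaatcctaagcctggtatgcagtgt

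In the same window Pdc had no match to these letters. Rod markers were matched to promoters by symbol, and 21 of 29 were found.

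Markers of the other cell types of the retina gave medians on either side of 0, and none was called. Cone markers had a median log2 fold of -0.04, with 1 of 16 lower at an unadjusted p under 0.05. Bipolar markers had a median of -0.00145 with 2 of 21 higher, and amacrine markers 0.03 with 0 of 23. Mueller glia markers had a median of -0.02 with 4 of 21, all 4 lower. At that level 4.04% of all genes were higher and 4.8% lower. With 1 library left out the cone median ran from -0.12 (without R591) to 0.02 (without R588), and the bipolar, amacrine and Mueller medians lay between -0.09 and 0.05. Retinal ganglion cell markers had a median of 0.17, with 0 of 20 at an unadjusted p under 0.05 and summed levels that overlapped (918 to 1253 CPM with and 929 to 1158 CPM without diabetes). That median turned on single libraries, being 0.0047 without R588 and 0.34 without R591. Retinal pigment epithelium markers had a median of -0.29, with 2 of 21 at an unadjusted p under 0.05, both lower (against 4.8% of all genes). No marker separated the groups. Their summed levels overlapped, at 2123, 1149 and 1109 CPM in the diabetic and 1398 to 2058 CPM in the non-diabetic libraries. The median was -0.11 without R588, -0.12 without R591, -0.18 without R560 and -0.62 without R587. Among bipolar genes, Gpr179, an orphan receptor that anchors the mGluR6 cascade at the dendrite tips, was at 168, 187 and 199 CPM in diabetic and 154, 162, 159 and 152 CPM in non-diabetic libraries, which did not overlap. Its log2 fold was 0.24 ± 0.06 (SE; edgeR adjusted p = 0.249, DESeq2 adjusted p = 0.042).

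The gliosis list had a median below 0 in diabetic knockout retina. Gfap, the intermediate filament of reactive glia, was at 8.94, 13.5 and 5.38 CPM in diabetic and 16.3, 10.6, 10.8 and 23.1 CPM in non-diabetic libraries, and Fgf2 at 36.0, 67.4 and 31.2 CPM against 42.7, 51.0, 66.9 and 113 CPM. For both genes the groups overlapped and the highest library of all was non-diabetic R590. The median of the 22 gliosis genes was -0.19 with that library and 0.007 without it; it was -0.11 without R587, -0.11 without R591 and -0.30 without R560. Interferon response genes (median -0.02, 30 tested), complement genes (-0.03, 21 tested) and endothelial markers (-0.03, 20 tested) had medians near 0. With 1 library left out, the interferon median ran from -0.27 (without R587) to 0.16 (without R588), the complement median reached -0.20 (without R588), and the endothelial median ran from -0.07 (without R587) to 0.02 (without R559). Cldn5, the claudin of the endothelial barrier, had a log2 fold of -0.31 ± 0.14 in knockout and -0.70 ± 0.14 in wild-type retina, called only in the latter (edgeR adjusted p = 0.0191); the difference between the genotypes was not called (interaction adjusted p = 0.51).

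**Figure D4:**
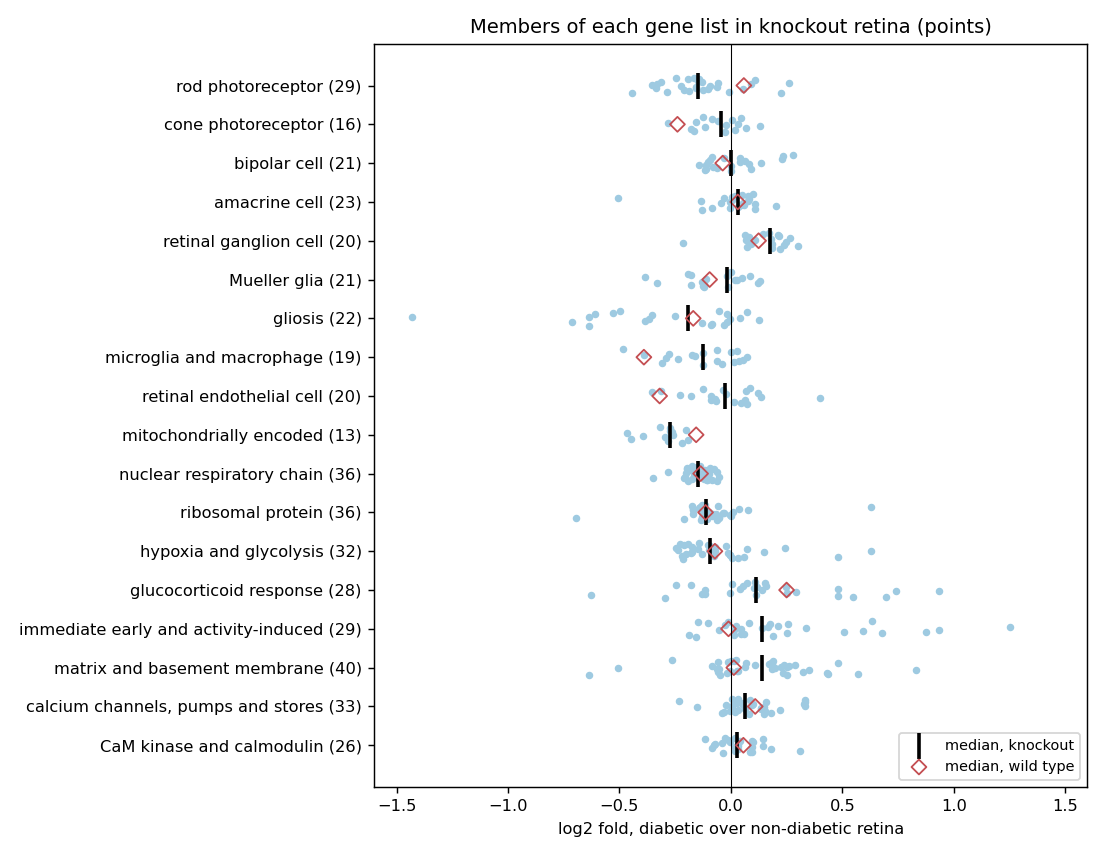
Each point is the log2 fold of 1 gene of the named list (number tested in brackets) in knockout retina, the black bar is the list's median there, and the open diamond is the same list's median in wild-type retina. The mitochondrial and nuclear respiratory genes lie wholly left of 0, and the immediate early list has a tail to the right that reaches a log2 fold of 1.25.

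Higher values were found among immediate early and glucocorticoid-responsive genes. Of 29 immediate early genes tested, 6 were higher and 1 lower at an unadjusted p under 0.05 (4.04% of all genes were higher at that level), with a median log2 fold of 0.14. That median was 0.08 without R587, 0.09 without R582 and 0.33 with the summed lens level as a covariate. Fos, a subunit of the AP-1 factor, was at 26.9, 24.8 and 19.2 CPM in diabetic and 15.8, 19.7, 11.1 and 12.6 CPM in non-diabetic libraries, which overlapped by 1 library (log2 fold 0.68 ± 0.21, SE; edgeR adjusted p = 0.362). Arc, which acts at active synapses, was at 2.02, 2.36 and 1.43 CPM against 0.754, 1.35, 1.18 and 0.928 CPM without overlap (log2 fold 0.88 ± 0.24, SE; edgeR adjusted p = 0.277). In wild-type retina the list's median was -0.01. The light phase and hour at which the retinas were taken are not given in the sources used here.

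Of 28 glucocorticoid-responsive genes, 6 were higher and 0 lower at an unadjusted p under 0.05, Dusp1 among them, against 4.04% of all genes higher. Their median was 0.11, and 0.06 without R588. Cdkn1a, the p21 inhibitor of the cell cycle, was at 4.57, 3.62 and 3.85 CPM in diabetic and 2.01, 2.10, 2.26 and 3.22 CPM in non-diabetic retinas (log2 fold 0.74 ± 0.19, SE). Hif3a was at 10.3, 11.3 and 9.09 CPM against 7.29, 7.95, 7.27 and 6.84 CPM (log2 fold 0.48 ± 0.16, SE), and Arrdc2 at 19.4, 18.6 and 17.1 CPM against 13.9, 10.5, 12.4 and 13.3 CPM. None of the 3 overlapped between the groups. In wild-type retina Cdkn1a and Hif3a were called higher in diabetes, with log2 folds of 0.81 ± 0.19 and 1.14 ± 0.16 (edgeR adjusted p = 0.0387 and 0.00853), and 4 genes of the list were called there, all higher, against 1.29% of all genes.

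Promoters of rapidly induced genes often carry TGACGT, the core of the cyclic AMP response element, bound by CREB, a factor that CaM kinases phosphorylate. Of 22 immediate early promoters in the RefSeq table, 8 held TGACGT on either strand (36.4%), against 6.56% of all promoters. Dusp1 and Fos are shown because both belong to this list and their levels are given above; capitals mark every match. In Dusp1 (chr17:26508473-26508722, - strand, GRCm38.p6) the matches begin 191, 143 and 141 bases before the gene start and the last pair overlap as a full palindrome. In Fos (chr12:85473640-85473889, + strand) the match begins 66 bases before it.
Dusp1: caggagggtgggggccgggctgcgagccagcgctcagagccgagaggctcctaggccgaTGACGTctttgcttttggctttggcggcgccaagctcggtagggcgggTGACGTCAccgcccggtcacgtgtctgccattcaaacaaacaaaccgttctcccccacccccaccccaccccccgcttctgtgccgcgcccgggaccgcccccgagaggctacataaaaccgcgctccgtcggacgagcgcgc
Fos: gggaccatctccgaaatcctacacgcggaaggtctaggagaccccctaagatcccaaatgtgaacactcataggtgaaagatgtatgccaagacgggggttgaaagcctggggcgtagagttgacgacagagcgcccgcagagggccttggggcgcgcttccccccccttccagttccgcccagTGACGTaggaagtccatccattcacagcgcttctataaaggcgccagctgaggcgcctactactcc

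Genes tied to glucose handling gave mixed values. Ager, the receptor for advanced glycation end products, was at 5.34, 5.98 and 4.05 CPM in diabetic and 3.12, 2.95, 3.19 and 2.78 CPM in non-diabetic knockout retinas. The groups did not overlap, and the log2 fold was 0.77 ± 0.17 (SE; edgeR adjusted p = 0.207, DESeq2 adjusted p = 0.0323), against 0.18 ± 0.17 in wild-type retina. Txnip, a thioredoxin-binding protein induced by glucose, was at 10.6, 9.89 and 8.25 CPM against 6.64, 6.40, 6.68 and 7.77 CPM (log2 fold 0.48 ± 0.16, SE; edgeR adjusted p = 0.414). Of 24 polyol, hexosamine and glyoxalase genes, 2 were higher and 3 lower at an unadjusted p under 0.05, against 4.04% and 4.8% of all genes. Of 32 genes of hypoxia and glycolysis, 1 was higher and 8 lower. Their median was -0.10, -0.04 without R591 and -0.17 with the lens covariate. Pgk1, phosphoglycerate kinase, was at 520.2, 497 and 477 CPM against 619.9, 603, 521 and 559.9 CPM, with 45.3% of its 31-base words unique.

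Of 40 matrix genes tested, 7 were higher and 0 lower at an unadjusted p under 0.05, and the median was 0.14, against 0.01 in wild-type retina; 4.04% of all genes were higher at that level. In wild-type retina 3 matrix genes were called higher and 1 lower, against 1.29% and 1.19% of all genes. Lama5, a laminin chain of basement membrane, was at 19.5, 25.4 and 20.9 CPM in diabetic and 16.4, 17.5, 18.1 and 18.0 CPM in non-diabetic libraries (log2 fold 0.32 ± 0.09, SE). Col4a5, a chain of type IV collagen, was at 20.2, 23.2 and 20.2 CPM against 16.7, 18.4, 16.6 and 17.8 CPM (log2 fold 0.29 ± 0.09, SE). Both were highest in library R588, the richest in lens RNA. The list's median was 0.09 without that library and 0.00965 with the lens covariate.

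Antioxidant genes of the NRF2 list gave 2 higher and 5 lower of 33 at an unadjusted p under 0.05, against 4.04% and 4.8% of all genes. Prdx3, the mitochondrial peroxiredoxin, was at 35, 34.6 and 35.3 CPM against 40.4, 40.6, 39.0 and 40.9 CPM. Gpx4, which reduces lipid peroxides, was at 304, 291 and 275 CPM against 332, 321, 332 and 347 CPM, with 61.1% of its 31-base words unique. Of 36 ribosomal protein genes, 7 were lower (4.8% of all genes were) and 0 higher, with a median of -0.11.

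None of the other CaM kinase II genes was called in retinas without the delta form. Camk2a was at 51.8, 49.0 and 43.1 CPM in diabetic and 44.1, 44.6, 45.2 and 45.7 CPM in non-diabetic libraries (log2 fold 0.10 ± 0.10, SE), and Camk2b at 158, 164 and 161 CPM against 142, 151, 177 and 164 CPM (log2 fold 0.02 ± 0.08, SE). For both the groups overlapped. Camk2g was at 124, 127 and 128 CPM against 110.4, 108, 114 and 114 CPM, without overlap. Its log2 fold was 0.18 ± 0.13 (SE; edgeR adjusted p = 0.77), and in wild-type retina 0.61 ± 0.14, with a call there (edgeR adjusted p = 0.0324) and none for the difference between genotypes (interaction adjusted p = 0.454).

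Of 26 CaM kinase and calmodulin genes, 5 separated the groups with higher diabetic values, against 5.49% of all genes. Only 1 had an unadjusted p under 0.05, against 8.84% of all genes in either direction. This was Camk1g, at 14.4, 17.3 and 15.5 CPM against 13.2, 12.1, 13.8 and 11.6 CPM (log2 fold 0.31 ± 0.10, SE). Of 33 calcium channels, pumps and stores, 4 were higher (4.04% of all genes were) and 0 lower, among them the L-type channel gene Cacna1d (log2 fold 0.18 ± 0.07, SE) and the ryanodine receptor gene Ryr2 (0.22 ± 0.09, SE), with a list median of 0.06. Lepr was near the limit of detection in all 7 libraries, at 0.195 to 0.491 CPM, so its level does not check the db genotype. Of 16 leptin signalling genes, 1 was higher and 1 lower at an unadjusted p under 0.05, against 4.04% and 4.8% of all genes. The median of that list was -0.01. Ptpn2, a phosphatase of leptin and cytokine signalling, was at 39.2, 36.4 and 40.2 CPM against 46.8, 47.3, 43.0 and 49.4 CPM (log2 fold -0.27 ± 0.08, SE). Of 26 circadian clock genes, 2 were higher and 1 lower at that level, against the same shares, with a median of 0.05. Usp2, a deubiquitinase of the circadian clock, was at 183, 157 and 164 CPM against 146, 145, 121 and 134 CPM (log2 fold 0.30 ± 0.10, SE).

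Of the 48 lists, the lens genes had the highest median. Crystallins and the beaded filament proteins Bfsp1 and Bfsp2 make up the lens fibre. Of 26 lens genes 22 were tested; Cryga, Crygf, Lim2 and Birc7 had at most 12 counts in any knockout retina, and Crygf had 0 in all 7. Of the 22, 20 had an unadjusted p under 0.05 and all 20 were higher in diabetic retina, and 21 separated the groups (5.49% of all genes did so in that direction); the median log2 fold was 2.77. None was called by edgeR, and DESeq2 called 14, against 0.639% of all genes. The summed lens level was 558, 1681 and 678 CPM in diabetic and 181, 101, 191 and 122 CPM in non-diabetic knockout retinas.

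The sum in library R588 was more than that of the other diabetic libraries together, but without it the median was still 2.09. Crygs was at 33.3, 89.8 and 38.3 CPM in diabetic and 11.5, 5.85, 9.48 and 5.91 CPM in non-diabetic libraries (log2 fold 2.72 ± 0.59, SE; edgeR adjusted p = 0.207). Cryaa was at 184, 354 and 227 CPM against 57.8, 30.7, 74.9 and 50.2 CPM, and Lgsn at 13.3, 69.9 and 9.44 CPM against 2.36, 1.90, 1.92 and 0.879 CPM. With the summed lens level itself as a covariate the list's median was 0.12, but that level is the sum of these same genes. Of 13 cornea and conjunctiva markers 3 were higher at an unadjusted p under 0.05, against 4.04% of all genes. Krt12, the keratin of corneal epithelium, was at 8.17, 1.83 and 16.4 CPM against 0.352, 1.05, 2.16 and 2.05 CPM, with 53.2% of its 31-base words unique. Krt5 was at 4.37, 1.93 and 11.5 CPM against 2.21, 0.5, 2.55 and 1.17 CPM, and Aldh3a1 at 8.94, 1.98 and 13.3 CPM against 1.06, 1.90, 3.78 and 3.27 CPM. Krt12, Krt5 and Aldh3a1 were highest in libraries R587 and R591, not in R588.

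Lens promoters commonly hold TGCTGA, the core read by MAF factors that drive crystallin genes. The letters occurred on either strand in 15 of 25 lens promoters (60.0%) and in 15.8% of all promoters. Cryaa and Crygs are shown as the crystallins of the values above; capitals mark the match, 108 bases before the gene start in Cryaa (chr17:31677681-31677930, + strand, GRCm38.p6) and 200 bases before it in Crygs (chr16:22811411-22811660, - strand), where it is read on the other strand.
Cryaa: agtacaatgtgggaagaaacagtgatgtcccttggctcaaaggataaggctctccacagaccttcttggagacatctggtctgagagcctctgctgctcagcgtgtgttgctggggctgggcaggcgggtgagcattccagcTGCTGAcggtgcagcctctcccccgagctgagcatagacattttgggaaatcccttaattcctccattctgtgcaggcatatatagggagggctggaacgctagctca
Crygs: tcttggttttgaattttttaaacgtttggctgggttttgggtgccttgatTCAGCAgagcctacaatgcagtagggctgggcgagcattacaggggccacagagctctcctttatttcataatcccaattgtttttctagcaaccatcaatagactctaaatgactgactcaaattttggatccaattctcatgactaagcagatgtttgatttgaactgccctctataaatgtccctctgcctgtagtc

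The direction of the lens genes was opposite in wild-type retina, where the sum was 68.7, 69.0, 150.0 and 57.5 CPM in diabetic and 1637, 1067 and 107 CPM in non-diabetic libraries and 16 lens genes were called lower (1.19% of all genes were). The test of the difference between genotypes called 26 of 20979 genes (0.124%), and 17 of the 26 were members of the lens list. Crygs had a difference of 6.42 on the log2 scale (interaction adjusted p = 0.0196). With the lens level as a covariate 1 gene was called, and without the 3 lens-rich libraries (knockout R588, wild-type non-diabetic R812 and R819) none was. With 1 library left out the count ran from 0 (without R559, R560, R582, R812, R819 or R915) to 541 (without wild-type diabetic R844).

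Diabetes called 520 genes in wild-type retina (2.48% of those tested) and 0 in knockout retina, but a call in a single genotype does not show a difference. Outside the lens list the direct test called 9 genes. These include the crystallin gene Cryab, which is in the heat shock list (interaction adjusted p = 0.0424), so the 9 are not all free of lens RNA. The wild-type and knockout comparisons share no library. Of the 520 genes, 347 (66.7%) had the same sign in knockout retina, against 57.6% of all genes. The 271 called higher (1.29%) in wild type had a median log2 fold of 0.80 there and 0.05 in knockout, and the 249 called lower had medians of −0.47 and −0.09. Without the 3 lens-rich libraries 0 genes were called in wild type, and with 1 library left out 4 (without R819) to 1501 (without R844). In knockout kidney 14 genes were called (0.077% of 18177), and none of the genes named above was among them; with 1 library left out that count ran from 0 (without K584, K588 or K591) to 2308 (without K596).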

How the data were processed

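Frozen organs were sequenced on a BGISEQ platform, per the labels. Trim Galore 0.6.4, kallisto (given as 0.4.6) and the build GRCm38.p6 are named in the submitters' processing notes. The authors deposited estimated counts and TPM per gene, which were read for 55385 genes a library; the estimated counts were rounded. Counting by strand is not stated, so overlapping or antisense genes may share reads.

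The test was edgeR 4.0.16 (R 4.3.3): TMM, filterByExpr, quasi-likelihood F test, Benjamini-Hochberg over all genes tested, calls at an adjusted p under 0.05. The 14 retina libraries in 4 groups shared 1 estimate of the spread; the 16 kidney libraries were fitted apart. Errors of log2 folds, given as SE, were back-calculated from the test as the size of the log2 fold over the square root of F. DESeq2 1.42.0 and limma 3.58.1, on log2(TPM + 1) for genes at TPM 1 in 3 libraries, were alternatives, as was sex read from sex-linked genes, since the labels give neither sex nor batch. The retina p-values set a difference between groups against the spread between animals, estimated over all 14 retina libraries.

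Named genes are the 4 CaM kinase II genes, Lepr, up to 8 of smallest p in each direction (at least 1 CPM in a group, no clone names), up to 4 per list and up to 8 of the interaction; 68 of them were followed through every alternative, and 1 gene is not reported here. Aldoa, with 2 tested gene IDs, was left out of names and list counts. Members and the 48 lists were chosen with earlier results of these data known. Promoters are those of RefSeq. The test was checked on simulated data.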

Additional observations from a re-analysis of the deposited data

Results flagged for a closer look

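In the 4 non-diabetic knockout retinas, 1 library lay far from the other 3 for 2 of the 68 genes and none of the 48 list sums examined, where chance alone gives about 1 in 20 such groups. Cox6c was at 107, 101, 100.5 and 101 CPM, with a gap that was 0.875 of the whole range, library R559 being the highest. Col1a1, a chain of type I collagen, was at 3.42, 3.50, 3.49 and 4.15 CPM, with a gap of 0.891 of the range, library R590 being the highest.

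For the difference in diabetes effect between knockout and wild-type retina, the interaction test of edgeR called 11 of the 68 genes followed. All were of the lens list, and over all genes 26 of 20979 (0.124%) were called. Some of the 11 were followed because this test had called them, so their share among the 68 is no result. Without the lens-rich libraries the test called 0 genes. The difference on the log2 scale was 7.43 for Lgsn, 7.44 for Crygc, 7.43 for Bfsp1, 5.80 for Bfsp2, 6.42 for Crygs and 6.68 for Cryba4. It was 6.16 for Cryba2, 6.04 for Cryba1, 6.56 for Crybb2, 5.95 for Crybb1 and 5.84 for Cryaa. Genes of other lists that were not followed were called too. Among them were Cryab of the heat shock list (2.785, interaction adjusted p = 0.0424) and Fabp5 of the fatty acid oxidation list (1.955, interaction adjusted p = 0.0436). The lens sums were 558 to 1681 CPM in diabetic and 101 to 191 CPM in non-diabetic knockout retina, and 57.5 to 150.0 and 107 to 1637 CPM in wild type.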

How the results depend on the processing

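The count of genes called in diabetic knockout retina was 0 with DESeq2's size factors in edgeR, with sex as covariate and with the lens level as covariate. It was 38 without the expression filter, 16 with the 7 knockout libraries alone, 92 by DESeq2, 3 by limma on log2(TPM + 1) and 3 on log2(TPM + 0.1), 1 (Hes5) without wild-type diabetic libraries R915, R942 and R954, and 25 without the lens-rich libraries, an alternative chosen after seeing the data. Leaving out 1 library gave 0 to 15, with 15 without R588, 12 without wild-type R852 and 5 without R590. Called list members were 18 of 1081 under no filter, against 38 of 40039 of all genes. With the 7 libraries they were 10 of 1021, against 16 of 20098. By DESeq2 they were 34 of 1081, against 92 of 40039, both including genes given no adjusted p. Of these 34, 14 were of the lens list. With the lens-rich set left out they were 9 of 1033, against 25 of 22303. Called list members were 0 to 11 with 1 library left out. The lists were chosen with earlier results of these data known.

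The interaction count was 105 without the filter, 1 with the lens covariate, 0 without lens-rich libraries, 166 by DESeq2, 1 by limma with either pseudocount, and 0 to 541 with 1 library left out (541 without wild-type diabetic R844). Alternatives for the wild-type and kidney effects were added after seeing the data. The wild-type count was 796 without the filter, 1 with the lens covariate, 0 without lens-rich libraries, 1073 by DESeq2, 154 and 168 by limma, and 4 to 1501 with 1 library left out. The knockout kidney count was 188 by DESeq2 and 0 to 2308 (without K596). The lens fold was 6.54, and 4.16 to 7.94 with 1 knockout library left out.

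Among named genes, none of them called, Camk2b (0.02) turned to -0.045 with the lens covariate and ranged from -0.031 to 0.076 with 1 library left out, being below 0 without R559 (-0.031) and R560 (-0.0020). Camk2d turned to 0.10 and 0.12 by limma, whose TPM scales move the median of all genes to 0.086 and 0.10. Lepr (-0.01) turned to 0.028 with sex and 0.44 with the lens covariate, and ranged from -0.22 to 0.20 with 1 library left out (0.20, 0.042 and 0.17 without R587, R560 and R582). With the lens covariate Cryba2 turned to -0.030 and Cryaa to -0.27, but both genes are part of that summed level, so this alternative cannot test them. The medians of the rod, mitochondrial, nuclear respiratory, ribosomal, lens, matrix, glucocorticoid and immediate early lists kept their sign in all 24 alternatives. Some of these left out only wild-type libraries, so they hardly test medians of knockout retina. The lens covariate is made of the lens genes, so it cannot test that list. Relative to all genes, limma's mitochondrial median was -0.27 with a pseudocount of 1 and -0.28 with 0.1. No paired analysis was possible because diabetic and non-diabetic retinas share no animal number.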

Other observations

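The number of genes at a TPM of at least 1 was 19320, 19311 and 19199 in the diabetic knockout retinas and 18673, 18708, 18978 and 18817 in the non-diabetic ones, without overlap and at nearly equal depth. In the wild-type retinas it was 18621 to 19177 with and 18460 to 18978 without diabetes, which overlapped.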
